A study of Mus musculus with 16 samples.

Results

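MicroRNAs (miRNAs) of extracellular vesicles (EVs) were set against those of the macrophage line that releases them, both under concanavalin A (Con A), a lectin of the jack bean that activates T cells and is used to induce hepatitis in mice. The members were the sequencing libraries with these labels, 4 of the 16 of the study: 1 library of vesicles (RAW Con A EVs) and 3 libraries of cells (PBS/Con A, replicates 1 to 3). Both sides came from RAW264.7, a mouse macrophage line that the labels assign to a male BALB/c background. The cells were kept for 8 h with PBS in medium freed of EVs, followed by 16 h with Con A, whose dose for cells was not given in the labels used here. The vesicles came from the medium of RAW264.7 cells kept for 24 h with Con A at 25 µg/mL in EV-free medium, which was cleared at 2000 g, filtered at 0.2 µm and spun at 175000 g for 4 h, with a further spin in PBS. RAW Saline EVs, from medium of cells kept with saline in the same way, are given beside them as the other vesicle library of this line, also 1 library. Con A time, plate format and RNA kit (miRNeasy Serum/Plasma for vesicles, miRNeasy Mini for cells) differ between vesicles and cells and cannot be told apart from the vesicle itself. Whether the 3 cell libraries came from separate cultures on separate days is not stated in the labels, so their spread may be technical.

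An miRNA is a short RNA cut from a hairpin precursor, whose arms give a 5p and a 3p product. It is loaded into an Argonaute protein and pairs with target mRNAs mainly through its seed, bases 2 to 8 from the 5′ end, so miRNAs with the same seed share most targets. Cells release part of their miRNAs in vesicles and bound to protein. In macrophages miR-21a-5p, miR-146a-5p and miR-155-5p are known for their induction by inflammatory signals, miR-142a and miR-223 for their restriction to blood cells, and miR-122-5p is the leading miRNA of hepatocytes.

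The vesicle library held 134884 miRNA reads, and the cell libraries held 222375, 302162 and 308824. Levels are reads per 1000000 miRNA reads of a library (CPM), so they are shares: a rise of one miRNA lowers all others. With 0 reads, a level of up to 22.2 CPM remains possible in the vesicle library and 9.71 to 13.5 CPM in the cell libraries. Intervals and floors cover counting error only, and the spread between vesicle preparations is unknown because there was 1 library. Thinned to the depth of the shallowest vesicle library, 114791 reads, the vesicle library was expected to show 385 miRNA names and the cell libraries 360 to 362. The 10 most abundant miRNAs took 66.7% of vesicle reads and 67.6% to 68.2% of cell reads.

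The cell and the vesicle libraries both held reads of blood-cell and macrophage miRNAs and of miRNAs known from other cells, in different shares. The summed level of 6 blood-cell and macrophage miRNAs was 285931 to 299128 CPM in the 3 cell libraries, 40539 CPM in the RAW Con A EVs and 113345 CPM in the RAW Saline EVs. All 6 had reads in the vesicle library. Most of the sum in cells was miR-21a-5p, at 262898 to 276828 CPM, whereas miR-223-3p stood at only 25.9 to 36.4 CPM there. The 4 hepatocyte miRNAs summed to 211752 CPM in the vesicle library, nearly all of it miR-122-5p, against 1093 to 1470 CPM in the cells and 4234 CPM in the RAW Saline EVs. The 4 erythrocyte miRNAs summed to 1490 CPM in the vesicle library, 0 to 3.31 CPM in the cells and 2448 CPM in the RAW Saline EVs. The 8 epithelial and islet miRNAs stood at 141 CPM in the vesicle library and 142 to 162 CPM in the cells. The endothelial, stromal and muscle sums were higher in the vesicle library than in the cells. By contrast the lymphocyte miRNAs summed to 912 CPM in the vesicle library and 1372 to 1589 CPM in the cells. The neural miRNAs summed to 6168 CPM in the vesicle library and 8549 to 8823 CPM in the cells. The culture medium of this line holds fetal bovine serum per the labels, and no library of medium without cells was analysed here. Whether serum, other samples or the cells themselves are the source of these miRNAs was not tested. In a bulk vesicle library more vesicles of one source and more RNA per vesicle cannot be told apart. The numbers of calls are therefore given also with totals that leave such miRNAs out.

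Sequences of part of the miRNAs described below are shown first, as mature mouse miRNAs from RefSeq (GRCm38.p6), 5′ to 3′, with the seed in capitals. That of miR-122-5p is not among them. Names with an entry on a certain chromosome were set aside before matching, so an unmatched name may still have an entry in RefSeq. Of the 202 miRNAs compared, 178 (88.1%) then matched an entry by name. The first set is examples among the miRNAs described below, lower in vesicles for the first 4 and higher for the last 5.
miR-21a-5p: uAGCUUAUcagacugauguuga
miR-142a-3p: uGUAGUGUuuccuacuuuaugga
miR-130b-5p: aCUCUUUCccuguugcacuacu
miR-210-3p: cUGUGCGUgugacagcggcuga
miR-148a-3p: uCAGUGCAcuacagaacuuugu
miR-3535: uGGAUAUGaugacugauuaccugaga
miR-127-3p: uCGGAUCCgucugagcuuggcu
miR-381-3p: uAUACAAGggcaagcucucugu
miR-451a: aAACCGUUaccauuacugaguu

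The second set is the families whose members share a seed and yet stood on different sides of the cells, or all on one side.
let-7a-5p: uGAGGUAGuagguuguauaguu
let-7b-5p: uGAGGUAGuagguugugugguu
let-7c-5p: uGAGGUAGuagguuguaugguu
let-7d-5p: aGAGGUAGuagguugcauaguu
let-7e-5p: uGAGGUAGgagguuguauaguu
let-7f-5p: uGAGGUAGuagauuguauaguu
let-7g-5p: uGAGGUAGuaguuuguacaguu
let-7i-5p: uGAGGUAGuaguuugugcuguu
miR-98-5p: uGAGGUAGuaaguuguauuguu
miR-148b-3p: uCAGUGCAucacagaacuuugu
miR-152-3p: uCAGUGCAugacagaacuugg
miR-10a-5p: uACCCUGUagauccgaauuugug
miR-10b-5p: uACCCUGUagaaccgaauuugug
miR-99a-5p: aACCCGUAgauccgaucuugug
miR-99b-5p: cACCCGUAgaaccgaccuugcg
miR-100-5p: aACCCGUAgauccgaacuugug
miR-7a-5p: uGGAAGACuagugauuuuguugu
miR-7b-5p: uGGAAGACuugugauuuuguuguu
miR-103-3p: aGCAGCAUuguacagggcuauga
miR-107-3p: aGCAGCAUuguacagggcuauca

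The third set is both arms of hairpins whose arm use differed between vesicles and cells.
miR-423-5p: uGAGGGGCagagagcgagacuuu
miR-423-3p: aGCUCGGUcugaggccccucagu
miR-155-5p: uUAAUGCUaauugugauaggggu
miR-155-3p: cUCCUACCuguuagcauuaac
miR-125a-5p: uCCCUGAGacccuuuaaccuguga
miR-125a-3p: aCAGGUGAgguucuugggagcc

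Vesicle miRNAs differed from those of the cells far more than the cell libraries differed among themselves. Of the 941 miRNA names, 202 were compared because the mean of the vesicle and the cell level was at least 50 CPM. A miRNA was called when its vesicle level lay at least 2-fold above, or below, each of the 3 cell libraries and the exact 95% interval of the read ratio left out 1. By this rule 48 miRNAs (23.8%) were higher in vesicles, 77 (38.1%) were lower and 77 were neither. Of those higher, 27 were at least 10-fold higher, and 17 had 0 reads in all 3 cell libraries. Of those lower, 46 were at least 4-fold and 11 at least 10-fold lower. The highest and lowest cell library differed by a median of 1.15-fold and at most 1.92-fold over the 171 compared miRNAs with at least 50 CPM in cells.

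**Figure D1:**
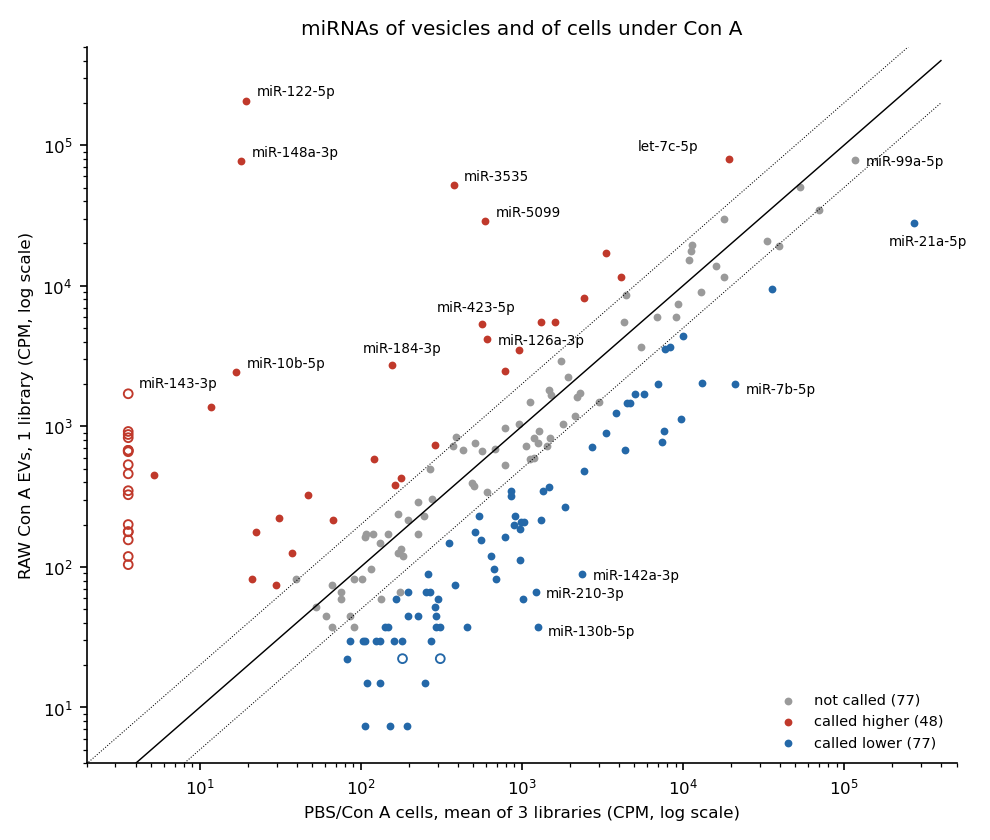
Level of each of the 202 compared miRNAs in the RAW Con A EVs (1 library, vertical axis) against the mean of the 3 PBS/Con A cell libraries (horizontal axis), both in CPM on log scales. The solid line marks equal levels and the dotted lines 2-fold differences; open circles had 0 reads on one side and are drawn at the level that 3 reads would give. miR-122-5p and miR-148a-3p stand far above the line, and miR-21a-5p, the most abundant cell miRNA, below it.

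The called miRNAs held a large part of the reads. The 48 higher miRNAs held 53.0% of vesicle reads and 3.64% to 3.87% of cell reads, and the 77 lower miRNAs held 7.40% of vesicle reads and 46.0% to 47.0% of cell reads. The remaining 77 held 39.2% of vesicle reads and 48.9% to 49.7% of cell reads. Set against the same cells, the RAW Saline EVs had 57 of 209 miRNAs higher (27.3%) and 69 lower (33.0%). In the RAW Saline EVs the same higher miRNAs held 7.70% of reads and the lower ones 19.03%. Among the 71 miRNAs with at least 1000 CPM in cells, 6 were higher and 29 lower. At 100 to 1000 CPM in cells 11 of 88 were higher and 46 lower. All 20 compared miRNAs under 10 CPM in cells were higher, which the minimum level of 50 CPM required of them.

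Because CPM is a share, the split of the calls depends on the scaling. The median log2 ratio of vesicles over cells was -0.55 over the compared miRNAs. Scaling by TMM or by DESeq2 size factors raised every log2 ratio by a median of 0.48 or 0.60, and gave 66 higher and 62 lower or 70 higher and 59 lower miRNAs. Totals without miR-122-5p and miR-148a-3p gave 66 higher and 62 lower. Totals without all miRNAs of the other cell types, the Dlk1-Dio3 cluster and the miR-148 family gave 67 higher and 62 lower. All 48 higher calls and 59 of the 77 lower calls held under all 6 scalings tried, the main one included. Every other scaling shifted the log2 ratios upward, so a higher call could hardly be lost and its survival is no test. The 18 lower calls that did not hold had log2 ratios of -1.12 to -1.88, among them let-7d-5p, miR-26a-5p, miR-26b-5p, miR-30e-5p, miR-99b-5p and miR-191-5p. edgeR's quasi-likelihood test with TMM must assume that the lone vesicle library varies like the cell libraries, so its p-values carry no information on the spread between vesicle preparations, and the called miRNAs had been chosen by the size of the same difference. As a description only, 67 of the 77 lower miRNAs passed an adjusted p of 0.05 in that edgeR test and 10 did not, and of the 48 higher ones miR-150-5p alone did not, since it failed the filter on low counts.

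Some miRNAs that the macrophages expressed well made up a smaller share of the vesicles. Of the 20 most abundant in the cells, 6 were lower, 1 higher and 13 neither, beside 38.1% lower and 23.8% higher over all compared miRNAs. miR-21a-5p, an inflammation-induced miRNA, stood at 262898, 276828 and 271883 CPM in the cells, at 27928 CPM in the RAW Con A EVs and at 104398 CPM in the RAW Saline EVs. It was the first miRNA of every cell library and the tenth of the vesicle library, 9.69-fold lower there. miR-142a-3p, a blood-cell miRNA, stood at 2253, 2519 and 2361 CPM in cells and at 89.0 CPM in vesicles, 26.7-fold lower. Its partner arm miR-142a-5p was 4.76-fold lower, with 208 CPM in vesicles and 988 ± 114 CPM (SD, n = 3) in cells. miR-7b-5p held 21014, 20810 and 21511 CPM in cells and 2009 CPM in vesicles, 10.5-fold lower. In each of these the 3 cell libraries lay close together and both vesicle libraries lay below all of them.

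miR-130b-5p had the lowest ratio of the named miRNAs. It stood at 1448, 1119 and 1192 CPM in cells and at 37.1 CPM in the RAW Con A EVs, 33.8-fold lower, while the RAW Saline EVs held 828 CPM. Its partner arm miR-130b-3p had a log2 ratio of 0.48 and was not called. miR-210-3p, the main miRNA of the response to low oxygen, stood at 1169, 1297 and 1188 CPM in cells, at 66.7 CPM in the RAW Con A EVs and at 34.8 CPM in the RAW Saline EVs. It was 18.3-fold lower than in cells. miR-34a-5p, a target of p53, was 20.4-fold lower and miR-450a-5p 26.0-fold lower, each on 1 vesicle read. miR-362-5p had 0 vesicle reads against 278 to 346 CPM in cells. The level that 3 vesicle reads would give lay 14.01-fold below the cells, and the exact 95% upper limit of the ratio was 0.0893.

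The miRNAs known for macrophage activation did not move together. Of 11 inflammation-induced macrophage miRNAs 6 were compared, of which 0 were higher and 3 lower (miR-21a-5p, miR-155-3p and miR-9-5p), beside 23.8% higher and 38.1% lower over all compared miRNAs. miR-155-5p, which targets Socs1 and Ship1, stood at 998, 1003 and 1201 CPM in cells and at 719 CPM in vesicles, a ratio of 0.674 that was not called. miR-146a-5p, a brake on the NF-κB pathway, stood at 18887, 17646 and 17654 CPM in cells and at 11521 CPM in vesicles, a ratio of 0.638 that was not called either. Both levels lay below all 3 cell libraries, by less than 2-fold. miR-146b-5p, with the same seed as miR-146a-5p, stood at 4528, 4498 and 4352 CPM in cells and 8585 CPM in vesicles, a ratio of 1.93. miR-223-3p, a myeloid miRNA that this line expresses weakly, stood at 26.98, 36.4 and 25.9 CPM in cells and at 74.1 CPM in vesicles, on 10 reads. It was called higher at 2.49-fold with an exact interval of 1.06 to 5.33, and lost the call without PBS/Con A replicate 1 or replicate 3. In the RAW Saline EVs it stood at 26.1 CPM, within the range of the cells.

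**Figure D2:**
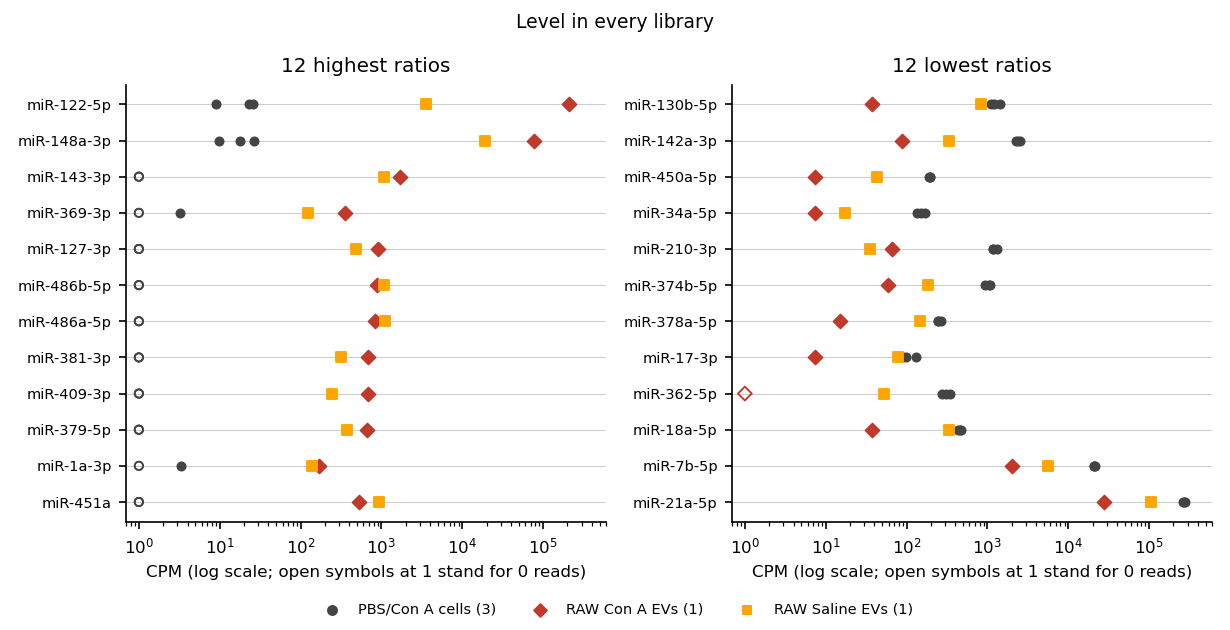
Level in every library of the 12 miRNAs with the highest (left) and the 12 with the lowest (right) ratio of vesicles over cells among those called with at least 100 CPM on their higher side, in CPM on a log scale. Grey circles are the 3 PBS/Con A cell libraries, red diamonds the RAW Con A EVs and orange squares the RAW Saline EVs; open symbols at 1 stand for 0 reads. The cell libraries cluster tightly, and the RAW Saline EVs share the side of the RAW Con A EVs for miR-143-3p and miR-451a but stand near the cells for miR-130b-5p and miR-18a-5p.

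miR-122-5p was the most abundant miRNA of the vesicle library and nearly absent from the cells. It had 2, 7 and 8 reads in the cell libraries, or 8.99, 23.2 and 25.9 CPM, and 28061 reads in the RAW Con A EVs, or 208038 CPM. This was 20.8% of the library and 10749-fold above the cells, with an exact interval of 6368 to 17509. The RAW Saline EVs held 3528 CPM, between the cells and the RAW Con A EVs. miR-192-5p, also abundant in liver and gut, stood at 3484 CPM in vesicles and at 876.9, 870.4 and 1137 CPM in cells, 3.62-fold higher, but at 609.8 CPM in the RAW Saline EVs, below all 3 cell libraries. miR-194-5p, from the hairpins next to miR-192 and miR-215, stood at 230 CPM in vesicles and 207 to 308 CPM in cells and was not called. The libraries of mouse serum vesicles held miR-122-5p at 99538 CPM after saline and 392037 CPM after Con A.

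miR-148a-3p, which is abundant in liver and secretory tissue, followed with 77074 CPM in vesicles against 17.99, 26.5 and 9.71 CPM in cells. The ratio was 4268-fold, with an exact interval of 2595 to 7653 on 15 cell reads. In the RAW Saline EVs it stood at 19078 CPM. miR-143-3p, a smooth muscle and stromal miRNA, had 0 reads in the cells and 1705 CPM in vesicles, at least 474-fold higher than the level of 3 reads over the 3 libraries, and 1080 CPM in the RAW Saline EVs. Of the 5 listed stromal miRNAs 3 were compared, and the other two did not share this direction: miR-199a-5p was 5.08-fold lower and miR-199a-3p, with a ratio of 0.801, was not called. miR-451a, the erythroid miRNA that matures through Ago2 without Dicer, had 0 reads in cells, 534 CPM in vesicles and 932 CPM in the RAW Saline EVs. Its level in the RAW Con A EVs was 148.3-fold above the same floor of 3 reads, with an exact 95% lower limit of 118. miR-486a-5p and miR-486b-5p, which derive from a locus read on both strands and may share reads, had 0 reads in cells and 830.3 and 875 CPM in vesicles. miR-126a-3p, an endothelial miRNA, stood at 607, 589 and 631 CPM in cells, at 4211 CPM in the RAW Con A EVs and at 3363 CPM in the RAW Saline EVs, 6.91-fold higher than in cells for the first. Of these, the RAW Saline EVs held as much miR-451a and miR-126a-3p as the RAW Con A EVs to within 2-fold, and far less miR-122-5p.

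A further group of higher miRNAs came from the Dlk1-Dio3 region of chromosome 12, an imprinted cluster expressed from the maternal allele. Of 38 listed members 22 had a read and 9 were compared, and all 9 were higher. Since none of the 9 had more than 1 read in the cells, they could pass the minimum level only through the vesicle side. The 38 members summed to 4559 CPM in the RAW Con A EVs, 2309 CPM in the RAW Saline EVs and 0, 0 and 3.24 CPM in the 3 cell libraries. miR-127-3p stood at 919 CPM in vesicles and 488 CPM in the RAW Saline EVs. Its level in the RAW Con A EVs was 255-fold above the same floor of 3 reads over the 3 cell libraries, with an exact 95% lower limit of 205. miR-381-3p and miR-409-3p each stood at 675 CPM and miR-379-5p at 659.8 CPM, all with 0 cell reads. Serum vesicles after Con A held 89.7 CPM of the listed cluster members, and serum vesicles after saline 1733 CPM.

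Some miRNAs with a high ratio overlap genes of other small RNAs. miR-3535 stood at 52304 CPM in vesicles against 364, 427 and 343 CPM in cells, 138-fold higher, and at 10898 CPM in the RAW Saline EVs. RefSeq places it at chr1:86352062-86352087 on the minus strand of GRCm38.p6, and in GENCODE vM21 this position lies inside a snoRNA gene, Gm24148, within the protein-coding gene Ncl. miR-5121 stood at 1372 CPM in vesicles and 8.99, 16.5 and 9.71 CPM in cells, 117-fold higher, and its RefSeq position at chr7:45126925-45126945, also on the minus strand, lies inside the snoRNA gene Snord33 within Rpl13a. miR-1839-5p, 3.15-fold higher in vesicles, overlaps a gene annotated as a scaRNA. Of the 178 compared miRNAs with a position, 8 overlapped such a gene on the same strand, of which 3 were higher, 1 (miR-3068-5p) lower and 4 neither. Among the 178 as a whole 37 were higher and 70 lower, beside 23.8% higher and 38.1% lower over all compared miRNAs. Reads of a snoRNA fragment and of an miRNA with the same bases cannot be told apart. miR-5099 stood at 28765 CPM in vesicles against 589, 655 and 534 CPM in cells, 48.5-fold higher, and at 845 CPM in the RAW Saline EVs. It matched no entry by name, so its position and any overlap with another gene were not examined. Of the 7 compared names numbered 3000 or above, 3 were higher and 3 lower, numbers too small to set apart from these shares.

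Outside these groups, some miRNAs read in all 3 cell libraries stood higher in vesicles. let-7c-5p stood at 20438, 18788 and 18949 CPM in cells and at 80024 CPM in vesicles, 4.13-fold higher and second in rank there. let-7b-5p stood at 3575, 3161 and 3193 CPM in cells and at 17200 CPM in vesicles, 5.20-fold higher. Both were lower than in the cells in the RAW Saline EVs, at 7945 and 2744 CPM. Of the 48 miRNAs called higher, 9 stood below the cell mean in the saline vesicle library: let-7b-5p, let-7c-5p, miR-183-5p, miR-184-3p, miR-192-5p, miR-199b-5p, miR-223-3p, miR-320-3p and miR-455-5p. miR-320-3p, which is made without Drosha, was 4.24-fold higher, with 5560 CPM in vesicles and 1311 ± 67.4 CPM (SD, n = 3) in cells, but at 767 CPM in the RAW Saline EVs, below the cells. miR-484, another Drosha-independent miRNA, was 5.04-fold lower. miR-184-3p stood at 2728 CPM in vesicles, 144, 165 and 162 CPM in cells and 131 CPM in the RAW Saline EVs. miR-25-3p was 2.79-fold higher, at 11610 CPM in vesicles and 4157 ± 212.2 CPM (SD, n = 3) in cells, and was the only higher member of its cluster list.

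Within seed families, summed levels could match while members did not. Families hold only the miRNA names matched to a sequence, so members without a match are missing from the sums and counts. Positions below are counted from 1 at the 5′ end. The let-7 seed, shown above, summed to 227470 CPM in vesicles and to 212034, 197947 and 200231 CPM in cells, 1.12-fold the cell mean, while log2 ratios of its members ran from 2.38 for let-7b-5p to -1.90 for miR-98-5p. let-7c-5p differs from let-7a-5p by A19G and let-7b-5p by A17G and A19G, and these members were 4.13-fold and 5.20-fold higher. let-7a-5p itself had a ratio of 1.72 and was not called. let-7f-5p, which differs from let-7a-5p by G12A, had a ratio of 0.934. let-7i-5p, with G12U, A17G, U18C and A19U, had a ratio of 0.494 and was not called, since it lay 1.99-fold to 2.10-fold below the single cell libraries, with 34519 CPM in vesicles and 72355, 68721 and 68758 CPM in cells. In the RAW Saline EVs let-7i-5p was the first miRNA, at 242571 CPM, and the seed summed to 492286 CPM. Members this close in sequence can exchange reads through sequencing errors, which bears most on the rare ones.

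Members also differed within smaller families, with or without a matching sum. miR-10a-5p and miR-10b-5p differ by U12A, and their summed level was 9838 CPM in vesicles and 10118, 8893 and 8830 CPM in cells. Yet miR-10b-5p was 144-fold higher, at 2417 CPM against 4.50, 23.2 and 22.7 CPM, and miR-10a-5p had a ratio of 0.801 and was not called. miR-148b-3p, which differs from miR-148a-3p by C9U and U10C, stood at 1498 CPM in vesicles and 2914 to 3091 CPM in cells and was not called, whereas miR-152-3p, with C9U, U10G and U20G, was 87.3-fold higher on 4 cell reads. The sum of this family did not match, at 79024 CPM in vesicles and 2941 to 3121 CPM in cells, 25.9-fold higher. In the miR-99 family miR-100-5p, which differs from miR-99a-5p by U16A, was 2.54-fold higher, miR-99b-5p was 3.09-fold lower and miR-99a-5p, at 78571 CPM in vesicles and 115404 to 119757 CPM in cells, was not called. By contrast miR-7a-5p and miR-7b-5p, which differ by A10U apart from the last base of the longer one, were both lower, and their summed level was 11573 CPM in vesicles and 55116 to 57614 CPM in cells. miR-103-3p and miR-107-3p, which differ by G22C, were 9.67-fold and 7.00-fold lower. Among the matched names 23 seeds had at least 2 compared members. Of these, 3 had members called in both directions, 5 had members at least 3 apart on the log2 scale and 10 had 2 or more lower members and 0 higher.

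**Figure D3:**
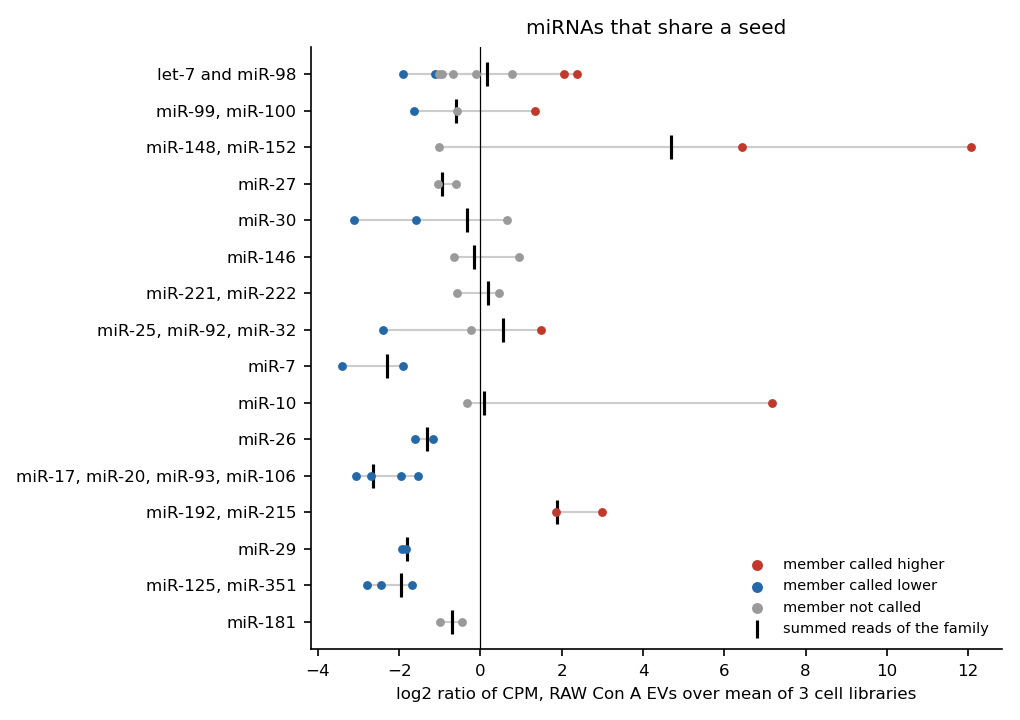
log2 ratio of CPM, RAW Con A EVs over the mean of the 3 cell libraries, for members of seed families (circles, coloured by call). Black ticks are the summed reads of a family. Shown are the 16 families with the highest summed vesicle level among miRNA names matched to a sequence. The miR-30 row holds only miR-30a-5p, miR-30c-5p and miR-30e-5p. The let-7 and miR-10 ticks lie near 0 although single members lie on both sides, and all miR-7, miR-26, miR-29 and miR-17 family members shown lie below 0.

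Several clusters and families lay mostly below the cells. In the Mir17hg cluster and its paralogs, which promote cell cycle entry, 12 of 22 members were compared, of which 1 was higher and 9 lower, with a median log2 ratio of -2.05 beside -0.55 over all compared miRNAs. miR-17-5p stood at 7469, 7552 and 7920 CPM in cells and at 919 CPM in vesicles, 8.32-fold lower. miR-92a-3p of the same transcript had a ratio of 0.857 and was not called. In the chromosome X cluster of miR-322, miR-503, miR-351, miR-542 and miR-450, linked to cell cycle exit, 6 of 7 compared members were lower and the median was -2.43. The miR-15/16 family, which represses cyclins, had 3 of 3 lower with a median of -1.99, and the miR-29 family, which targets collagens, 2 of 2 with a median of -1.88. Under TMM scaling these medians were -1.57, -1.95, -1.51 and -1.40. Over all compared miRNAs 38.1% were lower and 23.8% higher. miR-322-5p, lower on 2 vesicle reads, is counted in both the chromosome X cluster and the miR-15/16 family.

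Other lists were divided or near the background of 38.1% lower calls. In the miR-30 family 4 of 9 compared members were lower and 0 higher, and the median of -0.23 changed to 0.26 under TMM. Its member miR-30c-5p was 8.65-fold lower, with 9524, 9753 and 9957 CPM in cells and 1127 CPM in vesicles, whereas miR-30a-3p had a ratio of 2.14 and was not called. In the miR-23/27/24 clusters 3 of 8 were lower, with a median of -1.02, and miR-27b-3p, the fifth miRNA of the cells, had a ratio of 0.486 and was not called. Of the 4 miR-221 and miR-222 arms 1, miR-221-5p, was lower, and the median of -0.06 changed to 0.42 under TMM. Among 5 members of the miR-99/100 and miR-125 families 3 were lower, with miR-125a-5p 6.92-fold lower. The medians of the stromal, epithelial and Drosha-independent lists also changed sign under TMM. Of the 4 compared let-7 passenger strands 3 were lower, and of the neural list miR-9-5p was 6.49-fold lower. Both miR-26 members were lower, and neither miR-181 member was called. The lymphocyte list had 1 higher member of 3, miR-150-5p, on 0 cell reads, the muscle list 1 of 1, miR-1a-3p, on 1 cell read, and 0 of the 28 members of the Sfmbt2 cluster reached the minimum level.

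**Figure D4:**
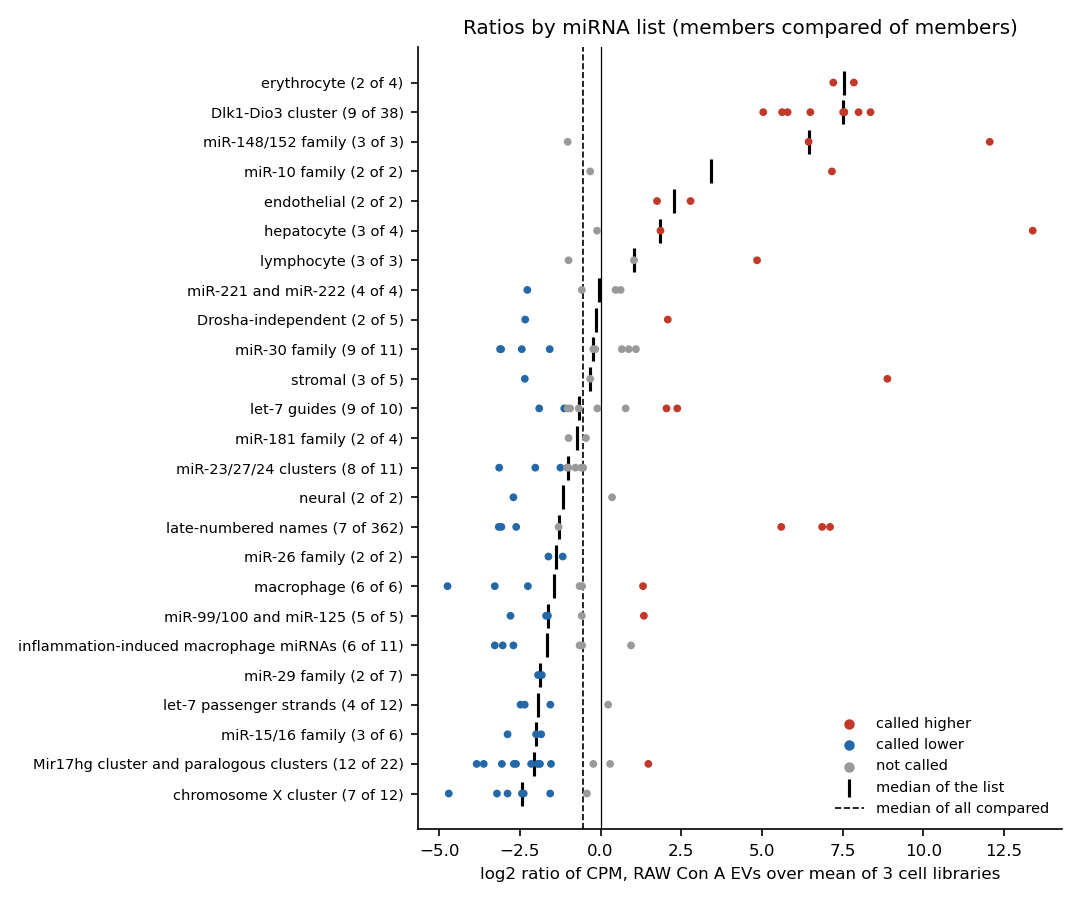
log2 ratio of CPM, RAW Con A EVs over the mean of the 3 cell libraries, for the compared members of each list (circles, coloured by call), with the median of each list (black tick) and of all 202 compared miRNAs (dashed line, -0.55). Numbers beside the names are members compared of members listed; the Dlk1-Dio3 and erythrocyte members lie at the far right, and the chromosome X and Mir17hg members mostly at the left.

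Arm use of hairpins does not depend on the scaling of libraries. In 60 hairpins with at least 50 reads over both arms on each side, the 5p share differed in 18 (30.0%), with a vesicle Wilson interval apart from those of all 3 cell libraries. The share was higher in vesicles for 5 and lower for 13. The arm that is minor in cells held a larger share in vesicles for 7 of the 18 and a smaller one for 11. The more abundant arm changed for 1 of the 60: of miR-423 reads 78.1% (75.3% to 80.6%) were 5p in vesicles and 34.1%, 35.8% and 30.9% in cells. In the RAW Saline EVs the miR-423 share was 20.98%, below the cells. miR-423-5p accordingly stood 9.37-fold higher in the RAW Con A EVs, while miR-423-3p had a ratio of 1.33.

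The other large differences in arm share were in both vesicle libraries on the same side for some hairpins. For miR-125a 54.5% (42.6% to 66.0%) of reads were 5p in vesicles, 98.2%, 97.8% and 98.9% in cells and 73.9% in the RAW Saline EVs. For miR-140 the share was 7.33% in vesicles, 32.9% to 35.5% in cells and 8.74% in the RAW Saline EVs. For miR-99b it was 62.2%, 88.1% to 88.6% and 63.5%. For miR-106b it was 15.5%, 36.5% to 42.4% and 18.7%, and for miR-199a 10.2%, 29.2% to 34.97% and 16.7%. These 5 hairpins thus carried more of the 3p arm in both vesicle libraries than in any cell library. For miR-199a the RAW Saline EVs share rests on 5 reads of the 5p and 25 of the 3p arm, together under the minimum of 50. miR-155 went the other way, with 97 reads of the 5p and 0 of the 3p arm in vesicles, where 83.7% to 86.7% of cell reads were 5p, and in the RAW Saline EVs its 14 reads, under the minimum of 50, were all 5p. miR-455 was 100% 5p in vesicles on 52 reads and 68.8% to 81.8% 5p in cells, and miR-10a 99.4% against 97.8% to 98.0%. The 3p arms of miR-199a and miR-199b have the same sequence, so the shares of these hairpins, 46.3% 5p in vesicles and 6.08% to 12.2% in cells for miR-199b, are uncertain.

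**Figure D5:**
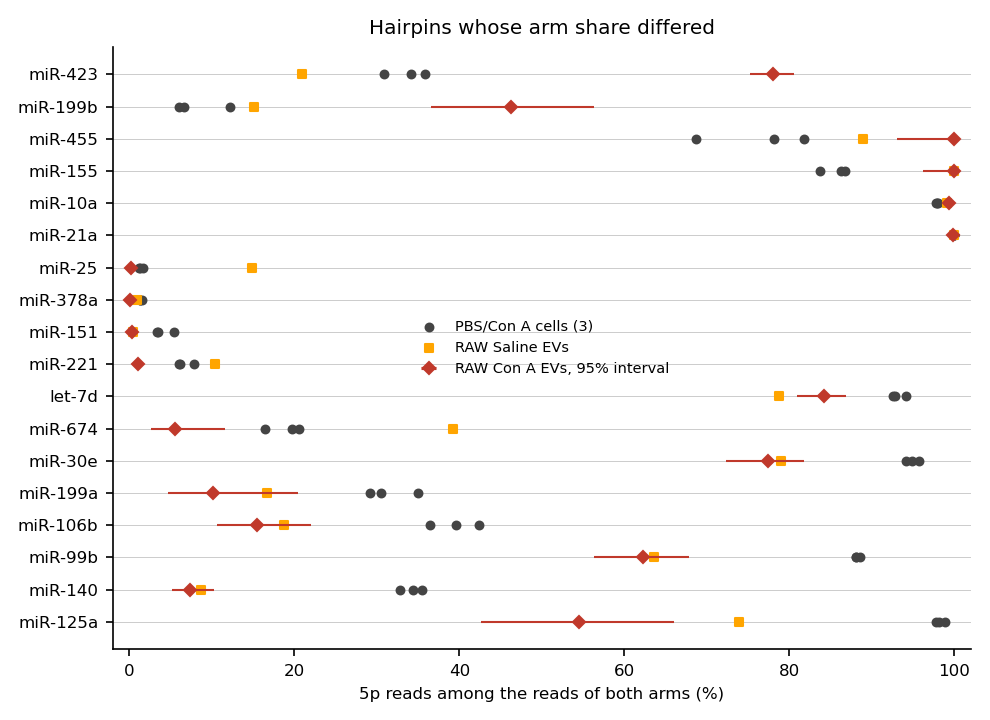
Reads of the 5p arm as a percentage of the reads of both arms, for the 18 hairpins that differed. Red diamonds are the RAW Con A EVs with their 95% Wilson interval, grey circles the 3 PBS/Con A cell libraries and orange squares the RAW Saline EVs; miR-423 stands at 78.1% in the RAW Con A EVs against 30.9% to 35.8% in cells, and miR-125a at 54.5% against 97.8% to 98.9%.

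Features of the sequences that the call did not use are given as a description of the 178 matched miRNAs. Matching was uneven, with 37 of the 48 higher and 70 of the 77 lower miRNAs. Of the 37 higher ones 11 lie on chromosome 12. A length of 23 bases or more was found in 13.5% of the 37 higher, 34.3% of the 70 lower and 25.3% of all. The last base was A in 13.5% of the higher, 34.3% of the lower and 23.0% of all. The median GC content was 45.5%, 42.9% and 45.5%. The motif GGAG, known from miRNAs exported with hnRNPA2B1 in human T cells, was in 5.41% of the higher, 5.71% of the lower and 8.99% of all. CCCU was in 5.41%, 12.9% and 8.43%, GGCU, known from sorting into vesicles in mouse hepatocytes, in 8.11%, 10.0% and 12.9%, UGCA in 13.5%, 21.4% and 16.9%, and UGUG in 21.6%, 15.7% and 17.98%. Motifs were searched on the miRNA strand only, members of a family share many of their bases, and the matches say nothing about binding of a protein.

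Cells that had received the RAW Con A EVs at 6000000000 particles per mL for 8 h before the same Con A treatment gave 3 more libraries. They were compared with the PBS/Con A libraries, which are also the cells of the vesicle comparison, so the results are set side by side and an agreement between them is not a result. In edgeR's quasi-likelihood test over 229 miRNAs 14 (6.11%) were higher and 12 (5.24%) lower in these recipients at an adjusted p of 0.05. With library sizes in place of TMM the counts were 6 and 30, and without any 1 of the 6 libraries of these groups they were 5 to 10 and 5 to 7. miR-122-5p had 14, 12 and 29 reads in recipients against 2, 7 and 8 in PBS cells, a log2 difference of 1.83 ± 0.39 (SE; edgeR adjusted p = 0.00161), and all 3 recipient libraries lay above all PBS libraries. It was called in all 6 fits that leave out 1 library of these groups. miR-148a-3p had 14, 5 and 25 reads against 4, 8 and 3, a log2 difference of 1.69 ± 0.46 (edgeR adjusted p = 0.0143), and overlapped the PBS reads. It kept its call in 3 of the 6 such fits, with adjusted p up to 0.172.

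Other miRNAs that were higher in vesicles differed in recipients by less than miR-122-5p, did not pass the test, or had too few reads for a measured size. miR-3535 differed by 0.48 ± 0.12 on the log2 scale (edgeR adjusted p = 0.00916) and miR-5099 by 0.42 ± 0.11 (edgeR adjusted p = 0.0140). Leaving out 1 library, edgeR called them in 4 and 3 of 6 fits, with adjusted p up to 0.0795 and 0.147. miR-451a had 2, 3 and 1 reads in recipients and 0 in PBS cells, and its edgeR adjusted p of 0.0493 held in 1 of 6 fits. Its fitted log2 difference of 4.23 ± 1.42 depends on the prior count, since the PBS reads were 0, and is no measure of size. let-7c-5p (-0.06 ± 0.06; edgeR adjusted p = 0.651), let-7b-5p (-0.03 ± 0.07; edgeR adjusted p = 0.847) and miR-126a-3p (0.06 ± 0.10; edgeR adjusted p = 0.815) did not pass the test, although each was over 4-fold higher in vesicles.

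Some miRNAs that were not higher in the vesicles differed in the recipients as well. miR-146a-5p was higher by 0.92 ± 0.07 on the log2 scale (edgeR adjusted p = 1.27e-12), while its vesicle level lay below that of the PBS cells. miR-7a-5p and miR-7b-5p, lower in vesicles, were higher in recipients by 0.52 ± 0.08 and 0.54 ± 0.07 (edgeR adjusted p = 7.35e-06 and 2.03e-06). miR-21a-5p, also lower in vesicles, was higher by 0.19 ± 0.06 (edgeR adjusted p = 0.0299), a call kept in 1 of 6 fits that leave out a library, with adjusted p up to 0.152. miR-221-5p, lower in vesicles, was at -0.71 ± 0.11 on the log2 scale in recipients (edgeR adjusted p = 2.38e-05). miR-142a-3p stood at -0.23 ± 0.07 (edgeR adjusted p = 0.0299), a call kept in 2 of 6 fits, with adjusted p up to 0.225. miR-155-5p differed by 0.10 ± 0.08 (edgeR adjusted p = 0.52) and did not pass the test.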

How the data were processed

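RNA of EVs and cells was sequenced as small RNA libraries (NEBNext kit, MiSeq, single reads of 51 bp) per the labels' protocols. The authors deposited raw counts of reads per mature mouse miRNA name; aligner, annotation and build were not stated in the sources used, and the submitters' processing notes list edgeR with no version. Depth was 134884 reads for the vesicles and 222375 to 308824 for the 3 cell libraries. The tables of scaled values were not used.

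Counts were converted to CPM of all miRNA reads, with Python 3.11.15 and scipy 1.17.1 for exact conditional and Wilson 95% intervals. The 2-fold rule with a minimum of 50 CPM is a description without p-values. Recipient cells were tested 2-sided in R 4.3.3 with edgeR 4.0.16 (TMM, filterByExpr, quasi-likelihood, all 12 cell libraries in 1 fit, Benjamini-Hochberg over 229 miRNAs), with DESeq2 1.42.0 as an alternative. The code was tested on simulated data. The numbers of the replicates do not pair the samples (correlations of deviations -0.08, -0.21 and 0.01).

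Named miRNAs were the 12 highest and 12 lowest ratios among calls with at least 100 CPM, the 10 most abundant of either side, a fixed panel, list members with extreme ratios and the 5 largest arm differences in each direction; others, such as miR-5121, miR-10b-5p, miR-152-3p, miR-192-5p and miR-184-3p, were chosen after their values were seen. Members and lists were chosen with earlier results of these data known.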

Additional observations from a re-analysis of the deposited data

How the results depend on the processing

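The vesicle side rests on 1 library of 134884 reads, so nothing here measures the spread between vesicle preparations, and miRNAs of a few reads have wide intervals. Numbers of miRNAs higher in vesicles were 83 of 305 with totals without the most abundant miRNAs, 100 of all names with a read when no minimum level was set, 31 of 131 with a minimum of 200 CPM, 77 of 254 in edgeR with TMM and 75 of 370 in DESeq2, against 48 of 202. Numbers lower were 46 of 131 with a minimum of 200 CPM, 44 of 202 with a 4-fold threshold and 49 of 370 in DESeq2, against 77 of 202; edgeR gave 65 of 254. These numbers differ in how many miRNAs were compared and are not to be read without it. Without 1 cell library each, 46 to 49 were higher and 78 to 79 lower. With RAW Saline EVs in place of RAW Con A EVs, 57 were higher and 69 lower of 209 (27.3% and 33.0%). Of the main calls, 24 of the 48 higher and 47 of the 77 lower were called there too, against the same cell libraries. On the other side of the cell mean stood 9 of the 48 miRNAs called higher and 7 of the 77 called lower. Among them the log2 ratios of let-7c-5p and let-7b-5p changed to -1.29 and -0.27; the cause was not tested. Of the 45 named and called miRNAs, 44 kept their call under every scaling, filter and left-out cell library that gave a value, the exception being miR-223-3p. Most of the 45 were named for extreme ratios or high levels, so this says little about the other calls. The alternative scalings shifted the ratios upward, so for the higher calls they were hardly a test. Over all 77 lower calls, 18 were lost under a scaling, among them let-7d-5p and miR-26a-5p, which are not among the 45. With a minimum of 200 reads, 11 of 34 hairpins had a different arm share, against 18 of 60.

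In recipient cells, higher calls were 6 with library sizes only, 7 in DESeq2, 7 with no filter and 5 to 10 without 1 library, against 14; lower calls were 30, 4 in DESeq2 and 5 to 7 without 1 library, against 12. Each of the 6 libraries, PBS/Con A replicates 1 to 3 and recipient replicates 1 to 3, moved at least 1 of these counts by over 1.5 times when left out. The replicate block gave 13 higher and 10 lower, without miR-222-5p and miR-451a. No paired analysis was possible for vesicles against cells because the vesicle library carries no replicate number.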
